A study of Mus musculus with 6 samples.

Results

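Small leucine-rich proteoglycans are secreted matrix proteins built around a curved stretch of leucine-rich repeats. They bind collagen fibrils and set how thick the fibrils grow and how far apart they lie, and several of them also hold growth factors such as TGF-beta. In arteries they are made by smooth muscle cells and fibroblasts, and most carry chondroitin, dermatan or keratan sulfate chains on a protein core. The family is divided into classes by gene structure and by the cysteines ahead of the repeats: biglycan (Bgn), asporin (Aspn) and decorin (Dcn) are class I, fibromodulin (Fmod), lumican (Lum), keratocan (Kera), osteomodulin (Omd) and Prelp are class II, osteoglycin (Ogn) is class III, and podocan (Podn) stands in a separate class.

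The genes were taken by name. Of 10 family symbols looked for, 8 were among the 7384 genes of the deposited tables, namely Fmod, Ogn, Lum, Bgn, Prelp, Omd, Aspn and Podn. Dcn and Kera were not analysed here. RNA was sequenced from vascular smooth muscle cells grown from mouse aorta. In 3 libraries the cells had received a small interfering RNA against Sirt6, which encodes an NAD-dependent deacylase, for 48 h (siSirt6), and 3 libraries were controls (Control). The comparison asks what lowering Sirt6 does to the transcriptome of these cells. The sources used here give neither what the controls received nor the strain, age and sex of the mice, and do not say whether the libraries of a group came from separate cultures. The p-values therefore measure the spread between these libraries, which may be technical.

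Values are normalised read counts as deposited. The listed genes took 14614192 to 15526399 reads in siSirt6 libraries and 14458847 to 14563794 in Control libraries. Sirt6 itself fell to 0.215 of its Control level, at 44.5, 59.8 and 63.5 in siSirt6 against 251.7, 257.0 and 270.4 in Control. The tables hold almost only genes that differ: with limma and Benjamini-Hochberg adjustment, 99.8% of the 7179 genes tested passed an adjusted p of 0.05, 50.5% higher and 49.3% lower in siSirt6. Under scaling to listed totals, which sets the sum over all listed genes equal in every library, 37.7% were higher and 49.7% lower, and after removal of the trend of the fold changes on transcript length and GC 37.2% were higher and 37.1% lower. That a member passed the test therefore says little, and the size and order of the changes carry the description below. Of the 10 smooth muscle markers looked for, 7 were listed, 5 of them higher and 2 lower in siSirt6, and their summed value was 102765 to 103856 in siSirt6 against 64244 to 64476 in Control. The actin Acta2 made up most of that sum, and Cnn1 averaged 699.9 in siSirt6 and 428.1 in Control. Tagln averaged only 348.3 in siSirt6 and 178.7 in Control. The 2 lower markers were Smtn, at 0.813 of its Control mean, and Mylk, at 0.803. Des and Myocd were not analysed here.

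Of the 8 family members, 6 were lower and 2 were higher in siSirt6, and in none did the ranges of the groups overlap. Among all tested genes, 96.8% had group ranges that did not overlap, 49.0% with siSirt6 higher and 47.8% with siSirt6 lower. The direction of Bgn turned under scaling to listed totals, as given below. The members' median log2 fold change, on the log2(value + 1) scale, was -0.66, against 0.09 over all tested genes. The members ranged from -2.68 for Fmod to 0.30 for Lum. A fall of at least 2-fold on that scale, which 3.71% of the tested genes showed, was seen in 2 members, Fmod and Ogn. Prelp (-0.95) and Omd (-0.96) came just short of it. Under scaling to listed totals they stood at -1.07 and -1.08, past 2-fold. Genes changed at least 2-fold then numbered 594 in place of 554. A rise of at least 2-fold, shown by 4.01% of the tested genes, was seen in no member. In bulk RNA, fewer cells of one type and less RNA per cell cannot be told apart.

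**Figure D1:**
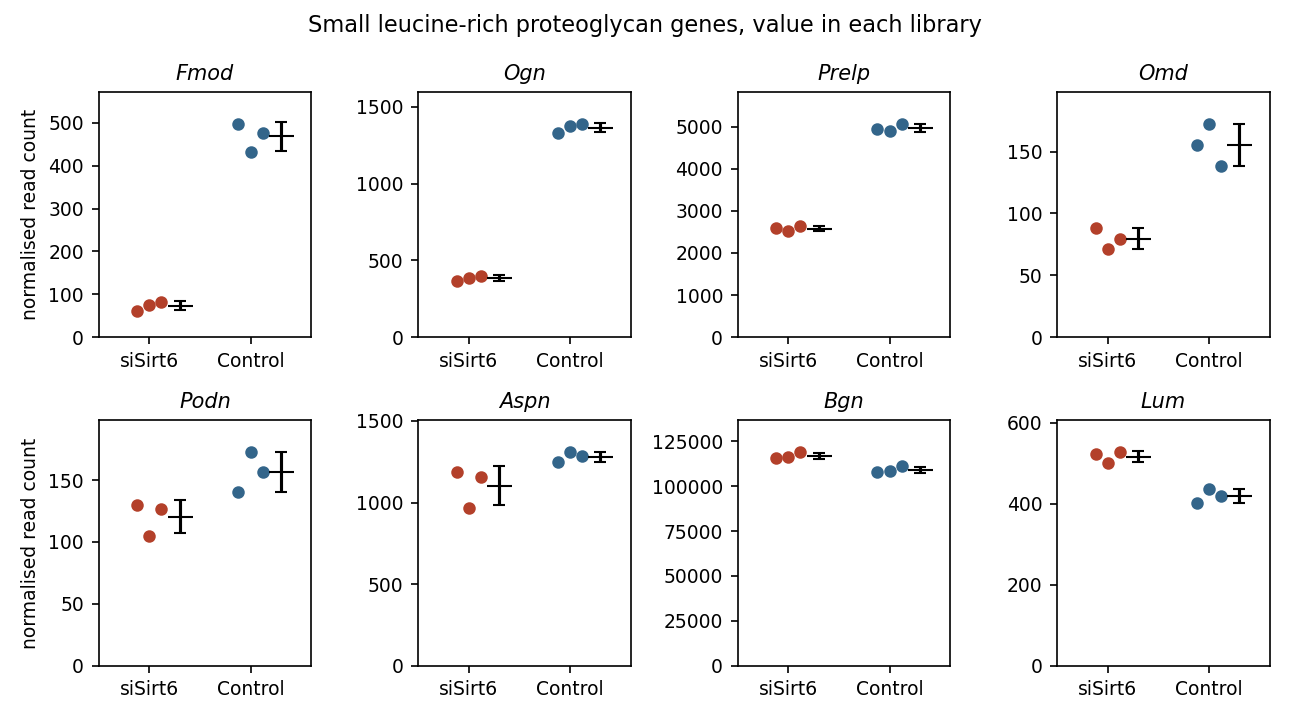
Normalised read count (y axis, linear, from 0) of each of the 8 listed small leucine-rich proteoglycan genes in the 3 siSirt6 and 3 Control libraries. Points are libraries and the bar beside them is the mean with its SD; Fmod and Ogn show the widest gaps (0.155 and 0.281 of Control), while the Bgn groups lie close together (1.07 of Control).

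Fmod (ENSMUSG00000041559), a class II member that carries keratan sulfate and binds type I collagen, had the largest change of the family. It stood at 61.3, 75.3 and 82.2 in siSirt6 libraries, against 497.6, 432.3 and 477.1 in Control libraries. The lowest Control library was 5.26 times the highest siSirt6 library. Fmod averaged 72.9 ± 10.6 in siSirt6 and 469.0 ± 33.4 in Control (SD, n = 3 each), a log2 fold change of -2.68 (standard error 0.116; limma adjusted p = 2.40e-20). The siSirt6 values rest on 62, 73 and 79 recovered reads and the Control values on 510, 444 and 494. Ordered from the largest fall, Fmod was number 5 of the 7179 tested genes, and number 2 of the 6530 with a mean of at least 5 CPM (values scaled to the same total over the listed genes).

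Ogn (ENSMUSG00000021390), a class III protein first isolated from bone that also binds collagen, came next. Its values were 363.9, 383.5 and 401.7 in siSirt6 libraries, against 1330, 1378 and 1389 in Control libraries. It averaged 383.0 ± 18.9 in siSirt6 and 1365 ± 31.3 in Control (SD, n = 3 each), a log2 fold change of -1.83 (standard error 0.0566; limma adjusted p = 2.00e-24). Both groups were tight, with a coefficient of variation of 4.94% in siSirt6 and 2.29% in Control. Ogn was number 37 of all tested genes from the largest fall, and number 12 among those with a mean of at least 5 CPM.

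The stretches around the start sites of Fmod, Ogn and Omd are shown because these genes were all lower in siSirt6, by unequal amounts, and Ogn and Omd are neighbours. Prelp, the neighbour of Fmod, fell about as much as Omd (log2 -0.95 and -0.96) and is not printed. They run from 250 bases before to 30 bases after the RefSeq start (GRCm38.p6, plus strand), at chr1:134037004-134037283 for Fmod, chr13:49607765-49608044 for Ogn and chr13:49582212-49582491 for Omd. Capitals mark the longest run of bases that Fmod shares with Ogn and that Ogn shares with Omd.
Fmod: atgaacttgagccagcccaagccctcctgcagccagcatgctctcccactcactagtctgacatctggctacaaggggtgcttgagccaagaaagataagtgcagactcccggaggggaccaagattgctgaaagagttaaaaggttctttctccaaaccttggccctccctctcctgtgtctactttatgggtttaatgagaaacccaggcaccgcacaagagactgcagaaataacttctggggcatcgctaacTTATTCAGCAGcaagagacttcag
Ogn: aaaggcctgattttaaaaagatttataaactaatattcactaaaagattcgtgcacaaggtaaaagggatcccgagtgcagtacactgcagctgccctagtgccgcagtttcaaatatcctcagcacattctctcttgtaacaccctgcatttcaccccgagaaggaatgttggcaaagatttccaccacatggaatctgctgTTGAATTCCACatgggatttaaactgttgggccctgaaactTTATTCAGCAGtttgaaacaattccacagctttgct
Omd: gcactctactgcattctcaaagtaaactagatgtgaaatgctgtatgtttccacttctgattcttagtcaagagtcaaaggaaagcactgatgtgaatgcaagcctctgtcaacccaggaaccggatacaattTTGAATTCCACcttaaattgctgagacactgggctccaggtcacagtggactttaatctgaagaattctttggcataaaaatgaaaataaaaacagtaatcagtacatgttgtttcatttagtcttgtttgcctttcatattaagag

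Both shared runs are 11 bases long and were picked after the sequences were seen. TTATTCAGCAG lies 7 to 17 bases after the RefSeq start of Fmod and spans the RefSeq start of Ogn. On either strand it is in 10 of 32851 RefSeq windows of 300 bases, or 0.0304%. The RefSeq start of Ogn lies upstream of its GENCODE start at 49608046, and the printed Ogn stretch ends before that position. Distances from starts in this paragraph are from RefSeq starts. TTGAATTCCAC, shared by Ogn and Omd, is in 5 windows, or 0.0152%. Windows were found for 7 of the 8 members. Over their 21 pairs the longest shared run was 6 to 13 bases, and the longest of all, GGCCCTCCCTCTC, joins Fmod with Podn and is in 12 windows. Fmod and Prelp also share a run of 11 bases, which is in 157 windows, or 0.478%. Motifs were searched on both strands in the 300-base windows. CCAAT was found in the most members, Fmod, Prelp and Aspn, and is in 37.4% of all windows. The GC box GGGCGG was found in Bgn and Podn (35.7% of windows) and the hypoxia element ACGTG in Aspn (19.6%). The SMAD element CAGAC was found in Fmod and Prelp and is in 49.6% of all windows. The TEAD site GGAATG was found once, 86 bases before the start of Ogn, and is in 14.7% of windows. TATAAA was found far upstream in Ogn (227 and 229 bases before the start, overlapping on opposite strands) and in Aspn, and is in 13.6% of windows. The AP-1 site TGANTCA, the CArG box and the NF-kB site matched none of the 7 windows, and are in 7.81%, 1.63% and 8.46% of all windows. The window of Ogn is 42.3% G and C with 4 CpG pairs and that of Fmod 51.0% with 3, while the median window has 52.7% and 7.

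Prelp (ENSMUSG00000041577), a class II protein that binds collagen through its repeats and heparan sulfate through its basic end, fell by about as much as Omd. Its values were 2581, 2514 and 2630 in siSirt6 libraries, against 4951, 4884 and 5062 in Control libraries. The mean was 2575 ± 58.0 in siSirt6 and 4965 ± 89.8 in Control (SD, n = 3 each), a log2 fold change of -0.95 (standard error 0.0292; limma adjusted p = 1.90e-24). Prelp lies on chromosome 1 at 133910304 to 133921414 (GRCm38, minus strand), and Fmod at 134037254 to 134048277 on the plus strand. No annotated coding gene lies in the 115839 bp between them. The family gene Optc, 2304 bp beyond Prelp, was not analysed here. Normalised reads of Fmod, per kb, were 0.0275, 0.0347 and 0.0362 of those of Prelp in siSirt6 libraries, against 0.117, 0.103 and 0.109 in Control libraries. Within each library this ratio is free of library scaling, and it shows that Fmod fell further than its neighbour.

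Omd (ENSMUSG00000048368), a keratan sulfate protein of mineralised tissues, was low in these cells. It had 88.0, 71.1 and 79.1 normalised reads in siSirt6 libraries, against 155.1, 172.3 and 138.1 in Control libraries. The mean fell to 79.4 ± 8.44 in siSirt6, against 155.2 ± 17.1 in Control (SD, n = 3 each), a log2 fold change of -0.96 (standard error 0.142; limma adjusted p = 3.13e-07). Lum (ENSMUSG00000036446; chromosome 10, 97565128 to 97572703, plus strand, GRCm38), the class II member best known for spacing the collagen fibrils of the cornea, went the other way. It had 522.1, 501.0 and 526.6 in siSirt6 libraries, against 401.0, 436.2 and 418.2 in Control libraries. That is a rise to 1.23 times the Control mean (log2 0.30, standard error 0.0689, limma adjusted p = 0.000171). Class II was therefore split, with Fmod, Prelp and Omd lower and Lum higher.

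In class I, Bgn (ENSMUSG00000031375; chromosome X, 73483602 to 73495933, plus strand, GRCm38) was by far the most abundant member. Its protein carries chondroitin or dermatan sulfate chains and, when released from the matrix, is a ligand of Toll-like receptors. It stood at 115731, 116278 and 118789 in siSirt6 libraries, against 107755, 108226 and 111023 in Control libraries. The groups lie close together without overlap, and the mean was 1.07 times that of Control (log2 0.10, standard error 0.0123, limma adjusted p = 9.44e-09). Scaling each library to its total over the listed genes turned the value of Bgn to -0.02 (adjusted p = 0.228), and removing the trend of the fold changes on transcript length and GC left 0.03 (adjusted p = 0.0554). That scaling to listed totals moved the median of all genes by -0.12. Relative to the listed genes as a whole, then, the level of Bgn had no call.

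Aspn (ENSMUSG00000021388), which lacks the sulfated chains of its class and binds TGF-beta, had 1187, 967.0 and 1154 in siSirt6 libraries, against 1249, 1307 and 1283 in Control libraries. siSirt6 replicate 2 was the lowest by a wide margin. The mean was 1103 ± 119 in siSirt6 and 1279 ± 29.0 in Control (SD, n = 3 each), a log2 fold change of -0.22 (standard error 0.0601; limma adjusted p = 0.00225). Without siSirt6 replicate 2 it was -0.13 (adjusted p = 0.0134), and removal of the trend of the fold changes on length and GC gave -0.12, without a call (adjusted p = 0.0832).

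Podn (ENSMUSG00000028600; chromosome 4, 108014791 to 108096445, minus strand, GRCm38), a matrix protein of kidney podocytes and vessel walls, had 129.5, 105.1 and 127.0 in siSirt6 libraries, against 140.5, 172.3 and 156.5 in Control libraries. The closest pair of libraries differed by a factor of 1.08. The log2 fold change was -0.37 (standard error 0.129; limma adjusted p = 0.00731). The call was lost without Control replicate 2 (-0.30, adjusted p = 0.0533) and with adjustment over all 55450 annotated genes (adjusted p = 0.0565), under which the other 7 members passed. In this GENCODE span Podn overlaps Scp2 on the same strand, which stood at 0.850 of its Control level, so reads of this pair may have been shared. The RefSeq start window of Podn, at 108031905 to 108032204, lies outside Scp2, which spans 108043839 to 108144998.

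**Figure D2:**
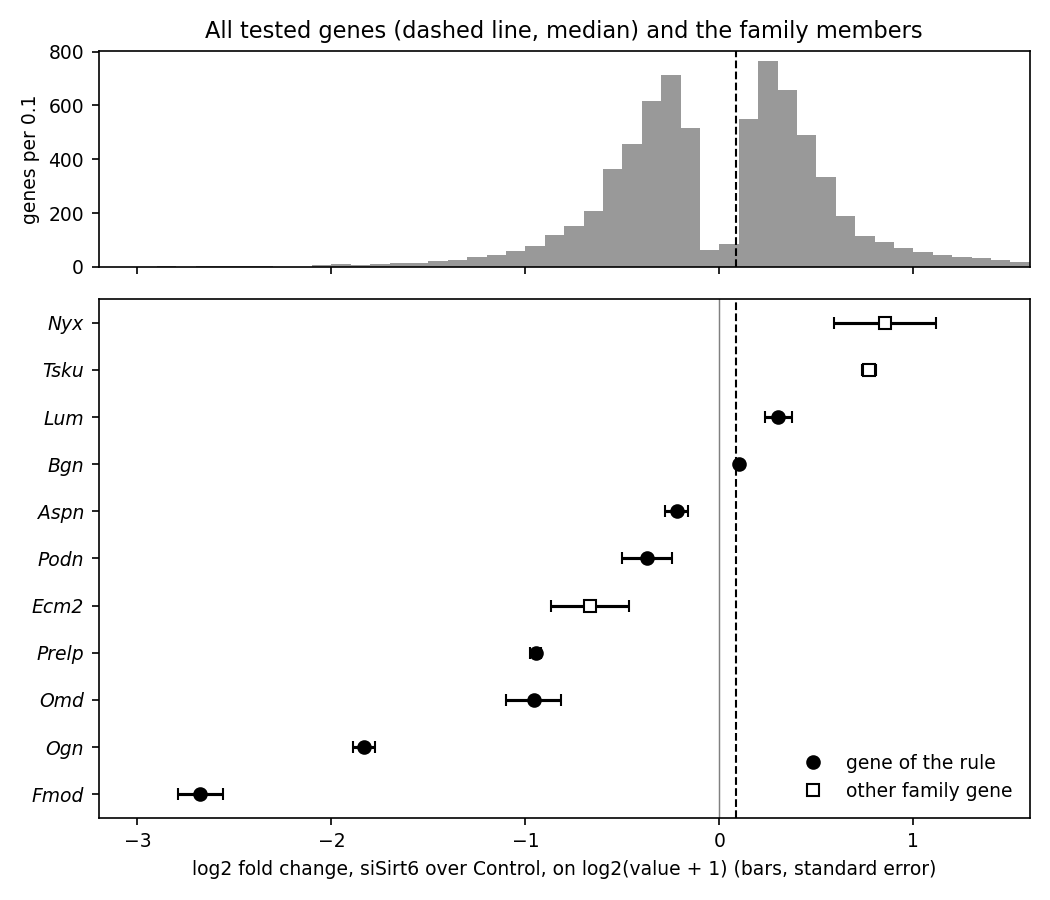
Upper panel, number of tested genes in each step of 0.1 of the log2 fold change (siSirt6 over Control); genes beyond the axis ends are not drawn. Lower panel, the 8 members (filled circles) and 3 other family genes (open squares) with standard errors; the members run from Fmod at -2.68 to Lum at 0.30, and the dashed line is the median of all tested genes, 0.09.

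Per kb of the longest coding transcript, the order of the levels was in part different in the 2 groups. In siSirt6 libraries Bgn came first at 48339 ± 674 normalised reads per kb, then Prelp at 712.3 ± 16.0, Aspn at 473.4 ± 50.9, Lum at 211.0 ± 5.58 and Ogn at 149.3 ± 7.37. Podn at 38.0 ± 4.23 and Omd at 35.3 ± 3.75 overlapped, and Fmod was last at 23.4 ± 3.41 (SD, n = 3). In Control libraries Bgn was first at 45061 ± 730 and Prelp next at 1374 ± 24.8. Aspn at 549.3 ± 12.4 and Ogn at 532.1 ± 12.2 overlapped, and Lum at 170.9 ± 7.18, Fmod at 150.3 ± 10.7, Omd at 69.0 ± 7.61 and Podn at 49.3 ± 5.02 followed (SD, n = 3). Fmod thus ranked last in siSirt6 and ahead of Omd and Podn in Control, and Lum ranked above Ogn in siSirt6 and below it in Control.

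Summed per kb, the 8 members stood at 49982 ± 713 in siSirt6 and 47955 ± 760 in Control (SD, n = 3 each), a ratio of 1.04. Bgn held 96.7% ± 0.137 of that sum in siSirt6 and 94.0% ± 0.0432 in Control. The other 7 together came to 1643 ± 77.6 in siSirt6, against 2895 ± 33.0 in Control, or 0.568 of the Control sum. Within these 7, Ogn held 9.10% ± 0.595 in siSirt6 and 18.4% ± 0.230 in Control, and Fmod 1.43% ± 0.221 in siSirt6 and 5.20% ± 0.397 in Control. Aspn held 28.8% ± 1.86 in siSirt6 and 19.0% ± 0.341 in Control, although its own level was lower in siSirt6. Lum held 12.9% ± 0.276 in siSirt6 and 5.91% ± 0.220 in Control, and Prelp was the largest of the 7 in both groups.

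**Figure D3:**
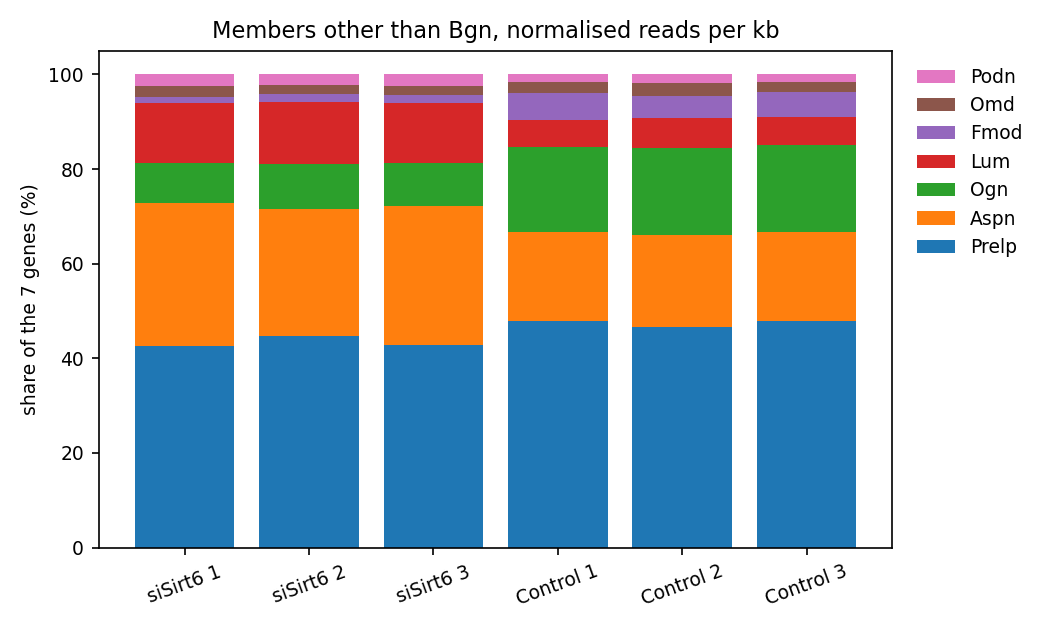
Share of each of the 7 members other than Bgn (y axis, percent of their summed normalised reads per kb) in the 3 siSirt6 and 3 Control libraries, 1 bar per library. The parts for Ogn (9.10% in siSirt6, 18.4% in Control) and Fmod (1.43% in siSirt6, 5.20% in Control) are narrower in siSirt6, and those for Aspn and Lum are wider.

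Aspn, Omd and Ogn lie side by side on the plus strand of chromosome 13, with a further family gene, Ecm2, ahead of them. In GRCm38, Ecm2 is at 49504810 to 49532789, Aspn at 49544443 to 49567565, Omd at 49582462 to 49592822 and Ogn at 49608046 to 49624501. The gaps between them are 11653, 14896 and 15223 bp, with no coding gene lying within them. All 4 were lower in siSirt6, but not evenly. Aspn, at log2 -0.22, fell least and had no call with the length and GC trend removed (-0.12, limma adjusted p = 0.0832). Ecm2 (ENSMUSG00000043631), a matrix protein related to the family by its repeats, had 33.6, 44.3 and 42.7 in siSirt6 libraries, against 59.5, 62.3 and 70.5 in Control libraries (log2 -0.67, standard error 0.201, limma adjusted p = 0.00275). Its call was lost with the length and GC trend removed (-0.37, adjusted p = 0.0757) and with DESeq2 on 5 libraries (-0.58, adjusted p = 0.0617).

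Ratios within a library show the uneven falls of the cluster. Per kb, Ogn stood at 0.278, 0.360 and 0.316 of Aspn in siSirt6 libraries, against 0.967, 0.957 and 0.983 in Control libraries. Ogn was thus level with Aspn in Control cells and about 0.318 of it in siSirt6 cells. Against Omd, Ogn stood at 3.62, 4.73 and 4.45 in siSirt6 libraries, against 7.51, 7.01 and 8.81 in Control libraries. Cenpp, on the minus strand from 49464023 to 49652785, spans all 4 genes and was not analysed here. The library kit is stranded per the labels, but no source used here says whether reads were counted by strand, and if they were not, reads of Cenpp and of these genes could not be told apart. The same holds for Prelp and its antisense gene Gm15851.

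**Figure D4:**
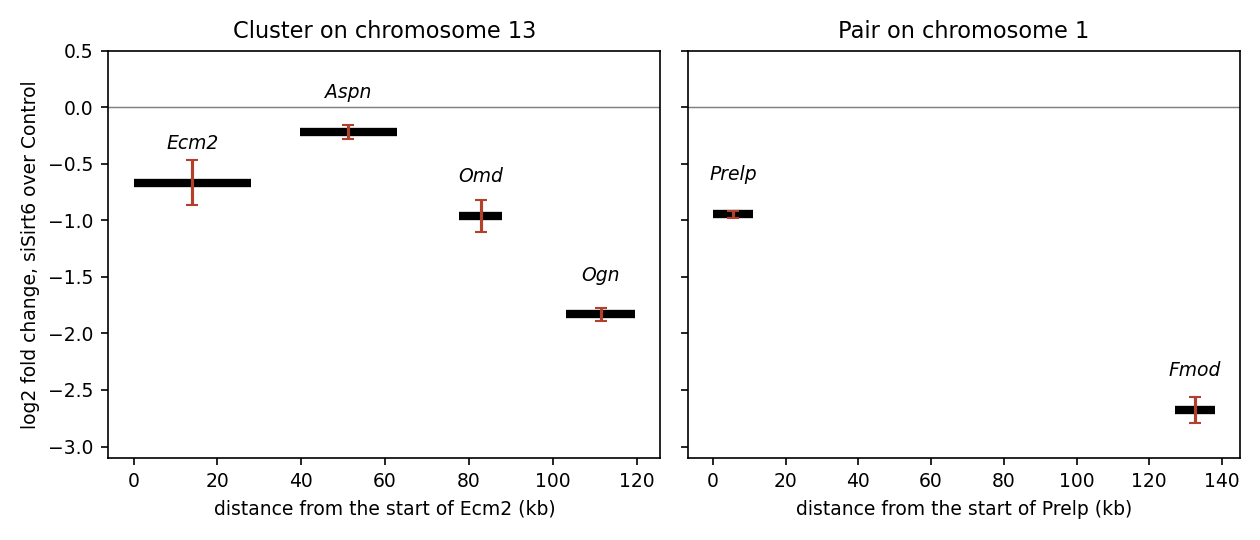
Log2 fold change (siSirt6 over Control) of the neighbouring family genes on chromosome 13 (left) and chromosome 1 (right), against distance in kb from the start of the leftmost gene. Black bars span each gene and red bars are standard errors; Ogn at -1.83 and Fmod at -2.68 lie lowest and Aspn at -0.22 highest.

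The nearest listed genes outside the clusters changed less than Fmod and Ogn, as did nearly all tested genes. In absolute log2 fold change, 99.78% of tested genes were at or below Fmod and 98.57% at or below Ogn. Tmem183a, 297819 bp from Fmod with 7 coding genes between them, was at 1.10 times its Control mean (log2 0.14), and that call was lost under scaling to listed totals, where it was 0.02. Spin1, 1476378 bp from Ogn with 9 coding genes between them, was at 0.846 of Control (log2 -0.24), and that call was lost with the length and GC trend removed (-0.05). On the other side of Prelp, Zc3h11a, 248923 bp away, averaged 25.5 ± 2.30 in siSirt6 and 47.6 ± 11.0 in Control (SD, n = 3 each; log2 -0.85). Lum is the only listed gene of the family cluster on chromosome 10 that also holds Dcn, Kera and Epyc.

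Of 8 further family symbols looked for, 3 were listed: Ecm2, Tsku and Nyx. Tsku, a secreted protein with leucine-rich repeats that modulates BMP and Wnt signals, rose to 1.71 times its Control mean. It had 2268, 2329 and 2318 in siSirt6 libraries, against 1362, 1321 and 1368 in Control libraries (log2 0.77, standard error 0.0371, limma adjusted p = 4.89e-19). Nyx, which encodes a membrane protein of the retina, had 50.4, 34.0 and 38.5 in siSirt6 libraries, against 21.5, 17.5 and 28.0 in Control libraries (log2 0.85, limma adjusted p = 0.00328). With DESeq2 on 5 libraries the call of Nyx was lost (0.68, adjusted p = 0.118). With these 3 added, 7 of 11 family genes were lower and 4 higher, with a median log2 fold change of -0.37. Over all tested genes 49.3% were lower and 50.5% higher. Bgn, Aspn, Podn, Ecm2 and Nyx each lost their call under some other processing.

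The genes closest to Fmod and Ogn in profile were found by the root mean square distance between log2 values over the 6 libraries, each gene centred on its own mean, among 6308 genes. Closest to Fmod were Fam107a (distance 0.225), the angiopoietin-like gene Angptl7 (0.231), Sirt6 itself (0.246), the chemokine Cxcl13 (0.381) and the GABA-degrading enzyme Abat (0.412). Angptl7 averaged 42.2 ± 10.6 in siSirt6 and 246.8 ± 4.70 in Control (SD, n = 3 each). Closest to Ogn were the proprotein convertase Pcsk5 (0.0519), Abat (0.0796), the hedgehog co-receptor Gas1 (0.0879), the glypican Gpc3 (0.0987) and Ecrg4 (0.108). Gas1 averaged 658.2 ± 41.6 in siSirt6 and 2187 ± 23.1 in Control (SD, n = 3 each). Fmod and Ogn were 0.437 apart. Because the groups were tight and far apart, this distance mainly reflects how near the fold changes of the genes are. It does not show that genes vary together within a group.

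Of 27 other proteoglycans looked for, 14 were tested, 8 of them higher and 6 lower, with a median log2 fold change of 0.22. Over all tested genes the shares were 50.5% higher and 49.3% lower. The cell surface glypican Gpc3 fell to 0.311 of its Control level, with 440.0, 419.6 and 474.6 in siSirt6 libraries against 1495, 1401 and 1400 in Control libraries. Gpc6, another glypican, fell to 0.498 and the syndecan Sdc1 to 0.581 of Control. The hyaluronan receptor Cd44 rose to 2.22 times its Control level, the large chondroitin sulfate proteoglycan Vcan to 1.78 times and Cspg4, a membrane proteoglycan of mural cells, to 1.69 times.

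Enzymes that build or sulfate the chains gave 7 higher and 7 lower among 14 tested of 30, with a median of 0.04. That is near the 50.5% higher and 49.3% lower of all tested genes. Fam20b, the kinase that phosphorylates the linkage xylose, fell to 0.696 of Control, and Csgalnact2, which adds the first N-acetylgalactosamine of a chondroitin chain, to 0.721. Chst14, the sulfotransferase specific to dermatan sulfate, rose to 1.38 times its Control level. Under scaling to listed totals 3 of these enzymes were higher and 7 lower, where 37.7% of all tested genes were higher and 49.7% lower.

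Collagens and fibril partners gave 10 higher and 10 lower among 20 tested of 24, with a median of 0.04. On the values as deposited, 50.5% of all tested genes were higher and 49.3% lower. Once the length and GC trend had been removed, 13 of this list were higher and 3 lower, against 37.2% and 37.1% of all genes. The fibril-associated collagen gene Col14a1 fell to 0.664 of Control and the adaptor protein gene Matn2 to 0.567. The fibrillar collagen gene Col5a2 rose to 1.69 times Control and elastin, Eln, to 1.78 times. Among proteases known to cleave these proteins, 7 were higher and 5 lower of 12 tested of 19 (median 0.14), and 5 higher and 5 lower under scaling to listed totals, where 37.7% of all genes were higher and 49.7% lower. Mmp3 rose to 1.53 times Control and Bmp1, which removes the propeptides of Bgn and Ogn, to 1.30 times, while Adamts5 fell to 0.683 of Control.

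Receptors and growth factors bound by the family gave 9 higher and 8 lower among 17 tested of 25 (median 0.11), and 6 higher and 8 lower under scaling to listed totals, against the 37.7% higher and 49.7% lower of all genes there. Kdr had the largest rise of this list, to 2.97 times Control, and Bmp2 the largest fall, to 0.496 of Control. Egfr, a receptor bound by decorin, fell to 0.689 of Control, the TGF-beta receptor Tgfbr1 to 0.723 and Bmp4 to 0.703. Ccn4, a matricellular protein, rose to 1.52 times Control. TGF-beta response genes were higher in 14 and lower in 4 of 18 tested cases (median 0.30). Of all tested genes 50.5% were higher and 49.3% lower. Under scaling to listed totals 12 of these response genes were higher and 6 lower (median 0.185), where 37.7% of all genes were higher and 49.7% lower. Among those higher were Pmepa1, an inhibitor of the pathway, at 1.63 times Control and the matrix protein Ltbp2 at 1.56 times.

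Markers of other cells moved in part with these groups. Of all tested genes, 50.5% were higher and 49.3% lower, and 37.2% and 37.1% once the length and GC trend had been removed. Of 11 adventitial fibroblast markers, 10 were tested, 5 higher and 5 lower, and 3 and 7 after that removal. Their summed value was 92195 to 94023 in siSirt6 libraries and 104750 to 105283 in Control libraries. The scavenger receptor Scara5 was at 0.331 of Control and Dpt, dermatopontin, which binds decorin, at 1.64 times. Endothelial markers were higher in 8 of 8 tested of 10, with summed values of 1823 to 1970 in siSirt6 and 1000 to 1155 in Control, and a median log2 fold change of 0.98. Of 10 macrophage and leukocyte markers 3 were listed, all higher, with summed values of 1978 to 2018 in siSirt6 and 1777 to 1822 in Control, and all 3 calls were lost under scaling to listed totals. Once the length and GC trend had been removed none of the 3 was called higher, and Lyz2 was called lower (log2 -0.184, adjusted p = 0.000156). Of 10 tendon and cartilage markers, 1 was listed, the cartilage collagen Col2a1, which rose to 1.94 times its Control level. None of the listed markers was at 0 in any library. The part of any of these cells in the falls of Fmod and Ogn was not tested.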

How the data were processed

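RNA-seq libraries of mouse aortic smooth muscle cells (3 siSirt6, 3 Control) were used as deposited. Each deposited table gives a signal per gene, a normalised read count, for the same 7384 genes. The deposited values are whole reads divided by 1 factor per library, since 100% of them came out whole within 0.001 reads. Trimmomatic, HISAT2, HTSeq, Cufflinks and the build mm10 appear in the submitters' processing notes; the sources used here do not say how factors and genes were chosen. No column lacked a sample.

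Genes that reached a value of 10 in 3 or more libraries were tested with limma 3.58.1 in R 4.3.3 (trend, robust, 2-sided) on log2(value + 1), which understates changes of low genes, with Benjamini-Hochberg adjustment over the 7179 tested. N-fold changes and parts of Control are ratios of group means. The fit was tested on simulated data. Count tests (edgeR 4.0.16, DESeq2 1.42.0) used recovered reads of 5 libraries, since the step of siSirt6 replicate 1 was not accepted by an automatic unit check. Positions and lengths came from GENCODE vM21, the GRCm38 build also called mm10, which held 7331 of the listed genes, and start-site sequences from RefSeq on GRCm38.p6.

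Named were the members, Sirt6, the listed further family genes, the 5 closest profiles to Fmod and to Ogn, the nearest listed genes, and up to 6 members of each list with the largest change and a mean of at least 5 CPM. Members and lists were chosen with earlier results of these data known.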

Additional observations from a re-analysis of the deposited data

How the results depend on the processing

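Under 17 alternatives, Fmod stayed between -2.79 and -2.56 on the log2 scale, Ogn between -1.95 and -1.76, Prelp between -1.07 and -0.93, Omd between -1.08 and -0.88 and Lum between 0.19 and 0.33, all past the threshold. Bgn was -0.017 under scaling to listed totals and 0.026 after removal of the length and GC trend, and Aspn was -0.12 after that removal, all 3 without a call. Podn was -0.37 without a call after adjustment over all annotated genes, and -0.45 to -0.28 when 1 library was left out. The cause of these losses was not tested. A filter on a mean of at least 5 CPM left 207 genes past 2-fold in place of 554, since it removes low genes from the test. Higher and lower genes numbered 3624 and 3542, against 2708 and 3572 under listed totals, 2651 and 2648 after that removal and 2945 and 3293 with DESeq2 on 5 libraries. Leaving out 1 library gave 3540 to 3577 higher genes, 3445 to 3474 lower genes and 542 to 563 genes past 2-fold. Of the leukocyte markers, C1qb was -0.092 and Lyz2 -0.184 after that removal (Lyz2 with a call, adjusted p = 0.000156), and Lyz2 was -0.01 under listed totals. Of 76 other named genes, 63 kept their direction and call under every alternative run. Libraries with the same replicate number did not deviate together (r = -0.019, 0.027 and -0.001). No pairing by number was seen, but these values cannot exclude one. The fit with a replicate block called 3629 genes higher and 3540 lower, with 554 past 2-fold, and Fmod stayed at -2.68 and Ogn at -1.83. Members with under 200 reads in every library (Omd, Podn) are the least precise, as is Fmod in siSirt6. Genes absent from the tables were not analysed here.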
